A study of Mus musculus with 6 samples.

Results

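Cytochrome P450 genes were followed in liver macrophage libraries of mice given a high fat diet (HFD) and of mice given a normal diet (ND). Members were the protein-coding genes whose deposited symbol reads Cyp, a number, 1 lower-case letter and a number, such as Cyp4a14, and 53 of the 14918 genes of the deposited table met this rule. They fall into 27 subfamilies of 13 families, and 52 of them passed the filter on low counts and were tested among 14361 genes. Cyp4f37 did not pass it, and its libraries lay between 0.227 and 0.295 CPM (counts scaled by the TMM library size) on the HFD and between 0.263 and 0.555 CPM on the ND. The HFD group was 3 C57BL/6 mice fed that diet for 18 weeks from an age of about 6 weeks, and the ND group was 3 C57BL/6 mice given the normal diet over the same weeks; no transgene or drug is named for either group. Each library was taken as 1 mouse, since the design counts mice. The sources used here do not state how the macrophages were taken from the liver, whether they were sorted, what the diets contained or the sex of the mice. Polyadenylated RNA was sequenced, and the comparison asks how gene expression of liver macrophages differs between the diets.

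Cytochromes P450 are haem enzymes that insert an oxygen atom into fats, steroids, bile acids, vitamins and drugs. Most sit in the membrane of the endoplasmic reticulum and take electrons from the reductase Por, while the mitochondrial ones are served by ferredoxin and its reductase. In the liver the drug and fatty acid metabolising members and the bile acid enzymes are known as genes of hepatocytes, controlled by nuclear receptors such as PPAR alpha, PXR and CAR, whereas a few members, among them the sterol hydroxylase Cyp27a1 and the leukotriene hydroxylase Cyp4f18, are known from macrophages and other myeloid cells.

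Promoter sequences from RefSeq (build GRCm38.p6, 250 bases before to 50 bases after the start of a gene) were matched for 42 of the 53 members, which gave 47 promoters. Shown are Cyp2b9, Cyp3a11 and Cyp2c38, which passed the test of the diets below, and Cyp26a1, which lay lowest against the ND. Capitals mark the letters TATAAA, the core of a TATA box, the letters AGGTCA, the half-site that many nuclear receptors bind, and in Cyp26a1 a DR5, a repeat of 2 half-sites spaced by 5 bases, the kind known to bind retinoic acid receptors. Repeats were searched with half-sites that vary from AGGTCA, and those marked in Cyp26a1 read TGAACT, which is AGTTCA on the other strand. Both strands were searched, and an AGGTCA may be part of a repeat. Distances are counted from the RefSeq start, which in Cyp3a11 lies inside the gene interval given below. Sequences run 5′ to 3′ along the gene.
Cyp2b9 (chr7:26173159-26173458, plus strand): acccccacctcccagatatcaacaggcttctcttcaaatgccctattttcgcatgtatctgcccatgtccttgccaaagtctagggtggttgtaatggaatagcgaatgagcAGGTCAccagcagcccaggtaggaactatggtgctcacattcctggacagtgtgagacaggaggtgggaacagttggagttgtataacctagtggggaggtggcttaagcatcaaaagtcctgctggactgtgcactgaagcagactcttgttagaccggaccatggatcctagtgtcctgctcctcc
Cyp3a11 (chr5:145879805-145880104, minus strand): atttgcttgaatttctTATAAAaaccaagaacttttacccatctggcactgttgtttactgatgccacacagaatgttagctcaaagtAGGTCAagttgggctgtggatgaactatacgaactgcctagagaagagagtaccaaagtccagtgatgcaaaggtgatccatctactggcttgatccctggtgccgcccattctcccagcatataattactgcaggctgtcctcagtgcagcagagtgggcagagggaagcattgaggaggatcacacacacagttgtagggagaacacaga
Cyp2c38 (chr19:39463026-39463325, minus strand): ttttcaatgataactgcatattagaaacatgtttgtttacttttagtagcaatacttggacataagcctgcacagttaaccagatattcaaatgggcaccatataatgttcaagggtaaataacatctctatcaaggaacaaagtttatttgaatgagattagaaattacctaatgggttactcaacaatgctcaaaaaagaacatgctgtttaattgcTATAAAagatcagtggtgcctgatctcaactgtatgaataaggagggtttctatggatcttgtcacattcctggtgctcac
Cyp26a1 (chr19:37697558-37697857, plus strand): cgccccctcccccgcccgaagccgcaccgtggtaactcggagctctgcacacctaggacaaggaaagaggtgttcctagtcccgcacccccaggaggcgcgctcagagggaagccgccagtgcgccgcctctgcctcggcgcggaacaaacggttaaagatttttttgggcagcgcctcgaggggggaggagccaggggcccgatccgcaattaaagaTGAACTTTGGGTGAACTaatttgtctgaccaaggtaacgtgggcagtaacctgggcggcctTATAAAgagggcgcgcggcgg

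In Cyp2c38 the TATAAA began 31 bases before the start. In Cyp3a11 it began 234 bases before the start, with an AGGTCA 162 bases before it, and in Cyp2b9 an AGGTCA began 138 bases before the start. The DR5 of Cyp26a1, a gene known to be induced by retinoic acid, began 32 bases before the start. The TATAAA of Cyp26a1 began after the start (distance to the start -29 bases), so the DR5 distance depends on where RefSeq places that start. TATAAA was found in 40.4% of the 47 member promoters and in 13.6% of all 32851 promoters of the same length, and AGGTCA in 29.8% of member promoters and 16.3% of all. A DR5 was found in 1 member promoter (2.13%), against 0.0974% of all, and a DR1, the same repeat with a spacing of 1 base, in no member promoter, against 0.222% of all. These matches describe letters and were not tested as binding sites.

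Total counts per library lay between 17470439 and 23610956. The libraries carried the macrophage label's markers at high levels, all 8 detected in every library: summed, Clec4f, Vsig4, Timd4, Cd5l, Emr1, Csf1r, Cd68 and C1qa stood between 22200 and 25960 CPM on the HFD and between 20570 and 32200 CPM on the ND. The libraries also held hepatocyte RNA in unequal amounts. Of 25 hepatocyte markers outside the P450 family (albumin, apolipoproteins, fibrinogen chains and the like), all were detected in every library, and their summed level was 11474, 6863 and 6675 CPM in HFD libraries 1 to 3, against 825, 3576 and 3251 CPM in ND libraries 1 to 3. HFD library 1 was the highest and ND library 1 the lowest, and the diets did not overlap. A hepatocyte score, the mean log2 CPM of these markers, averaged 7.35 ± 0.47 on the HFD and 5.46 ± 1.18 on the ND (SD, n = 3 each). The 25 markers had a median log2 fold change (HFD over ND) of 1.74. edgeR called 0 of them at an adjusted p under 0.05. By an unadjusted p below 0.05 in edgeR, 19 were higher, where 10.2% of all genes were. DESeq2 called 14 higher, where it called 4.96% of all genes higher, and limma voom called 0. Because these are bulk libraries, a change in the number of cells of a type and a change in the RNA of each such cell cannot be told apart. The Y-linked genes Ddx3y, Uty, Kdm5d and Eif2s3y were detected in all 6 libraries, at a summed 280 to 313 CPM on the HFD and 298.0 to 332 CPM on the ND. All 6 libraries thus held RNA of male cells, and the summed levels overlapped between the diets.

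Among the P450 genes, 7 rose on the high fat diet. These were the fatty acid hydroxylases Cyp4a14 and Cyp4a10, the drug metabolising enzyme Cyp3a11, and 4 members of the steroid, drug and fatty acid metabolising family 2: Cyp2b9, Cyp2c38, Cyp2a22 and Cyp2a4. The call rule was edgeR's quasi-likelihood test with a Benjamini-Hochberg adjusted p under 0.05 over all genes, which called 0.446% of all genes higher and 0.188% lower. No member passed as lower; with an unadjusted p below 0.05 taken instead, 27 members were higher and 2 lower, where 10.2% of all genes were higher and 8.4% lower. limma voom called 4 members higher (Cyp2a22, Cyp2a4, Cyp2b9 and Cyp2c38) and 0 lower, where 0.355% of all genes were higher and 0.153% lower. In limma voom Cyp3a11, Cyp4a14 and Cyp4a10 missed the threshold (adjusted p = 0.0505, 0.0653 and 0.0921) at log2 fold changes of 3.42, 6.87 and 4.79. DESeq2 called 20 members higher, the 7 among them, and 1 lower, Cyp26a1, with 4.96% of all genes called higher and 3.12% lower. All 3 HFD libraries lay above all 3 ND libraries in 30 of the 52 members tested, where 14.5% of all genes did so, and they lay below in 2, Cyp26a1 and Cyp2t4, where 10.8% of all genes did so.

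The median log2 fold change over the 52 members was 1.47, against 0 over all genes, with 45 members positive and 7 negative. It stayed positive under the 3 other scalings to whole libraries and was -0.31 when libraries were scaled to their hepatocyte marker counts, a scaling that moved the median of all genes by -2.21. Summed over the family, the libraries held 1601, 1053 and 1117 CPM of P450 transcripts on the HFD, against 535, 820.0 and 1170.0 CPM on the ND. The sums overlapped, with ND library 3 above 2 of the 3 HFD libraries. Without HFD library 1 the 7 calls became 1 (Cyp4a14), without ND library 3 they became 1 (Cyp2b9), without HFD library 2, HFD library 3 or ND library 1 they became 0, and without ND library 2 there were 12. Calls over all genes moved too: 4 genes were higher without HFD library 1, 18 without ND library 3, 0 to 2 in the settings with no member call, and 519 (with 866 lower) without ND library 2. The median was 0.87 without HFD library 1, 1.06 without ND library 1 and 0.68 without both.

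**Figure D1:**
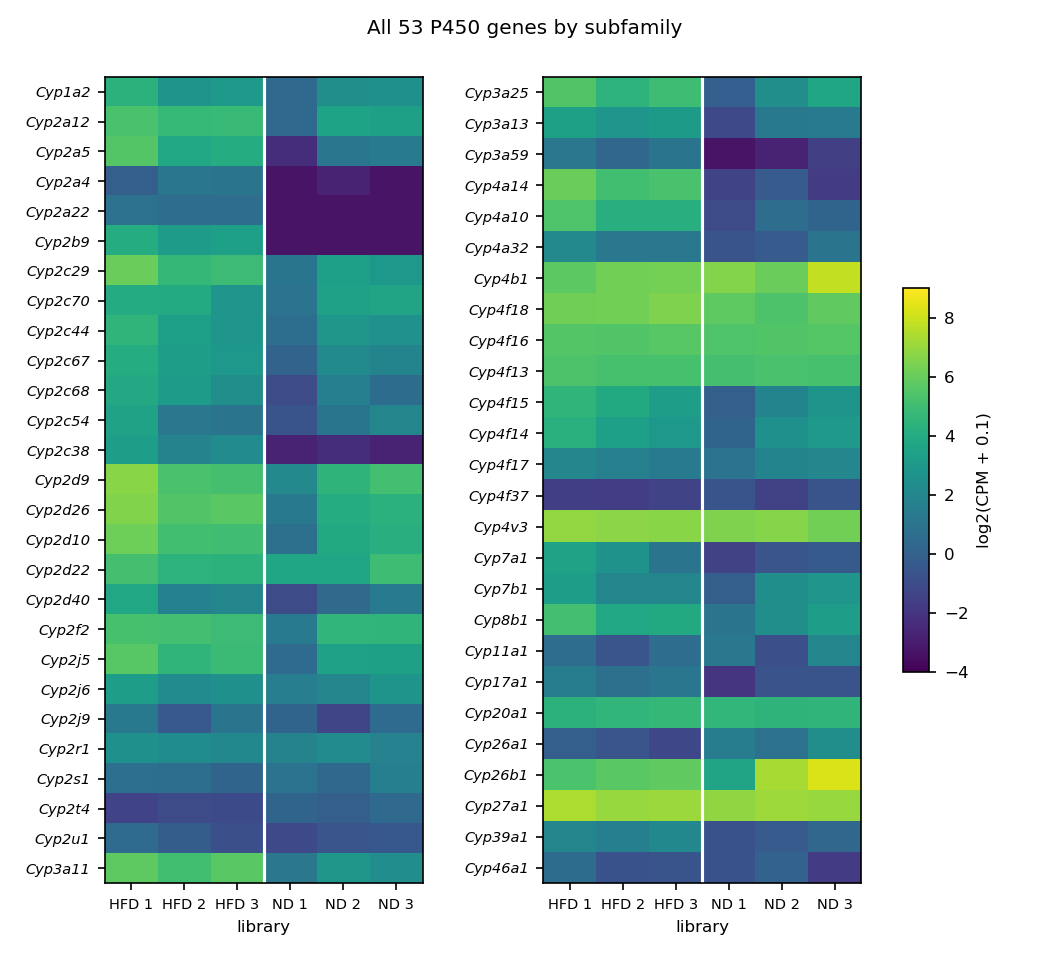
Level of each of the 53 P450 genes (rows) in each of the 6 libraries (columns, 3 HFD left of the white line and 3 ND right of it), coloured by log2 of CPM plus 0.1. Cyp2a4, Cyp2a22 and Cyp2b9 are at or near 0 in the ND libraries, ND library 1 is the darkest ND column for many rows, and Cyp4f13, Cyp4f16, Cyp20a1 and Cyp27a1 have nearly the same colour throughout.

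Per length, in the FPKM the authors deposited, the most abundant members on the ND were Cyp4b1, Cyp27a1, Cyp26b1, Cyp4f18 and Cyp4v3, and none of these passed the test of the diets. Cyp4b1 had 28.7, 40.1 and 41.5 FPKM in the HFD libraries, against 50.6, 34.9 and 118 FPKM in the ND libraries. Cyp27a1 had 91.1, 67.4 and 70.5 FPKM on the HFD, against 59.0, 72.8 and 67.4 FPKM on the ND. Cyp4f18 had 43.1, 44.4 and 53.03 FPKM on the HFD, against 31.3, 24.3 and 33.7 FPKM on the ND. On the HFD the order began with Cyp27a1 (76.3 ± 12.9 FPKM), Cyp4f18 (46.8 ± 5.41), Cyp2d26 (38.5 ± 16.0), Cyp4b1 (36.8 ± 7.04) and Cyp2d9 (36.0 ± 22.9; SD, n = 3), and the last 3 lie within each other's spread. Cyp2d26 was at rank 11 on the ND, at 7.83 ± 5.72 FPKM (SD, n = 3). Cyp4a14 was at rank 11 on the HFD, at 18.8 ± 7.69 FPKM, and at rank 47 on the ND, at 0.164 ± 0.114 FPKM.

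**Figure D2:**
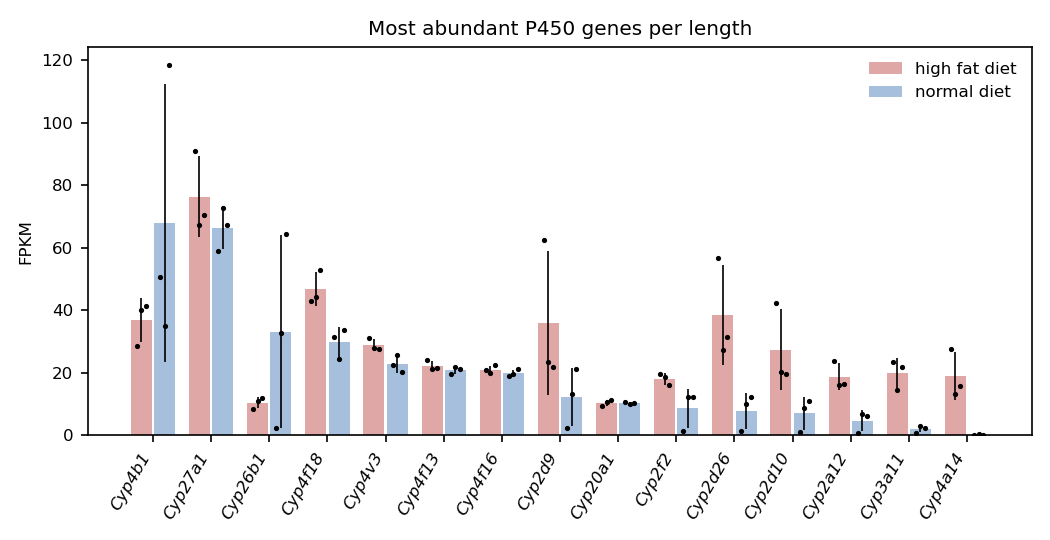
Deposited FPKM of the most abundant P450 genes, with bars for the mean of 3 libraries, lines for the SD and points for single libraries; HFD bars stand left of ND bars and genes run in order of their ND mean. Cyp27a1, Cyp4f13, Cyp4f16 and Cyp20a1 have like bars in both diets, Cyp4b1 and Cyp26b1 spread widely on the ND, and Cyp4a14 reaches 18.8 FPKM on the HFD against 0.164 on the ND.

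The Cyp4a subfamily, enzymes that hydroxylate the end of fatty acid chains and known targets of the fatty acid receptor PPAR alpha, held 2 of the 7 calls among its 3 members. Cyp4a14 (ENSMUSG00000028715, chromosome 4, 115486200 to 115496142, mm10) had 68.4, 32.8 and 38.9 CPM in HFD libraries 1 to 3, against 0.303, 0.737 and 0.199 CPM in ND libraries 1 to 3. Every HFD library lay far above every ND library, and the gene rose 113-fold (log2 fold change 6.82 ± 0.51, SE; edgeR adjusted p = 0.0244). Cyp4a10 (chromosome 4, 115518264 to 115533649) had 43.0, 18.2 and 18.2 CPM on the HFD, against 0.404, 1.47 and 1.05 CPM on the ND. HFD library 1 held more than the other two, no library overlapped, and Cyp4a10 rose 27.1-fold (4.76 ± 0.57, SE; edgeR adjusted p = 0.0420). Cyp4a32, a close copy of Cyp4a10, had 4.19, 2.21 and 2.23 CPM on the HFD, against 0.555, 0.737 and 1.89 CPM on the ND, and missed the threshold (1.43 ± 0.53, SE; edgeR adjusted p = 0.214).

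**Figure D3:**
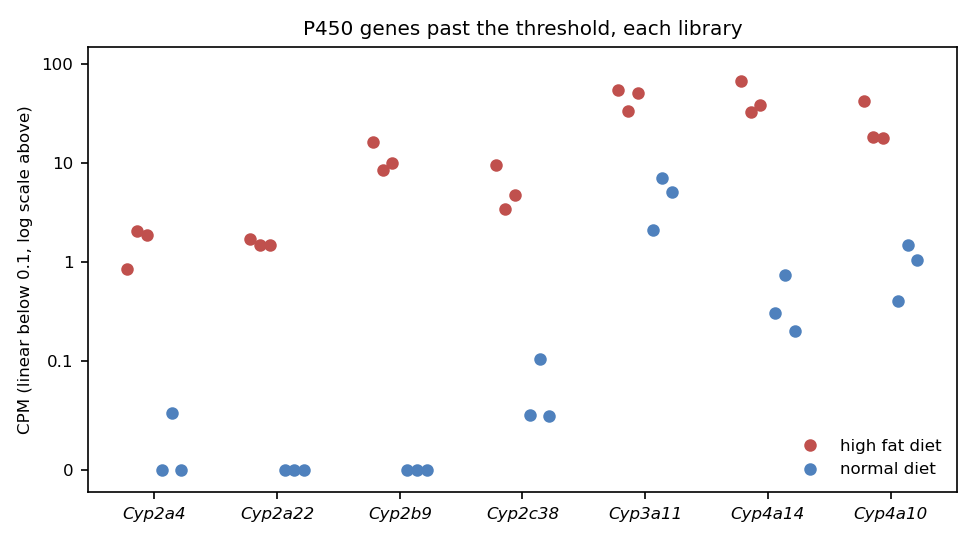
CPM of the 7 P450 genes past the threshold in each library (linear below 0.1, log scale above), HFD points left of ND points. The HFD libraries of Cyp4a14 lie between 32.8 and 68.4 CPM against 0.199 to 0.737 CPM on the ND, and Cyp2b9 and Cyp2a22 are at 0 in all 3 ND libraries.

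Cyp2b9 (ENSMUSG00000040660, chromosome 7, 26173411 to 26210661), a steroid and drug hydroxylase of the phenobarbital-responsive subfamily that is known in mice as more abundant in female than in male liver, had 16.3, 8.61 and 10.1 CPM on the HFD and 0 counts in all 3 ND libraries. It was at least 76.3-fold higher on the HFD against a floor of 3 counts per library, a bound that covers counting error only (edgeR adjusted p = 0.0337). Its promoter is the first of those printed above, with AGGTCA 138 bases before the start. Cyp2a22 (chromosome 7, 26931631 to 26939386) had 1.72, 1.47 and 1.47 CPM on the HFD and 0 counts in all 3 ND libraries, at least 10.2-fold higher against the same floor (edgeR adjusted p = 0.0420). The 3 HFD libraries of Cyp2a22 lay close together although their hepatocyte markers did not. Cyp2a4 (chromosome 7, 26307190 to 26315088), a steroid hydroxylase also known for higher levels in female mouse liver, had 0.858, 2.04 and 1.90 CPM on the HFD, against 0, 0.0526 and 0 CPM on the ND. That is 99 counts against 1, a ratio of 93.5 with an exact 95% counting interval of 16.4 to 3730 (edgeR adjusted p = 0.0431). Cyp2a4 was lowest in HFD library 1, the library with the most hepatocyte RNA. These patterns rest on 18, 36 and 45 counts of Cyp2a4 and 36, 26 and 35 counts of Cyp2a22 in HFD libraries 1 to 3. Much of the Cyp2a4 sequence is shared with Cyp2a5, as given below, so the order of its libraries is uncertain. The part of hepatocyte RNA in the values of Cyp2a4 and Cyp2a22 was not tested.

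The other Cyp2a members did not pass. Cyp2a5, the coumarin hydroxylase, had 45.0, 13.5 and 16.6 CPM on the HFD, against 0.101, 2.05 and 2.49 CPM on the ND (log2 fold change 4.01 ± 0.89, SE; edgeR adjusted p = 0.0978, DESeq2 adjusted p = 0.00857). Cyp2a12, a testosterone hydroxylase, had 39.0, 26.3 and 27.1 CPM on the HFD, against 1.26, 11.6 and 10.3 CPM on the ND (2.0 ± 0.69, SE; edgeR adjusted p = 0.202). Both were separated between the diets, and both were lowest in ND library 1.

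Of the 7 Cyp2c members, a subfamily known for drug hydroxylation and for making epoxides of arachidonic acid, 1 rose. Cyp2c38 (ENSMUSG00000032808, chromosome 19, 39389556 to 39463075) had 9.53, 3.40 and 4.72 CPM on the HFD, against 0.0505, 0.105 and 0.0498 CPM on the ND. This is 372 counts against 4, a ratio of 87.8 with a counting interval of 34.0 to 324 (edgeR adjusted p = 0.0337), and no library overlapped. Cyp2c29, the most abundant member of the subfamily, had 64.9, 25.3 and 30.0 CPM on the HFD, against 1.97, 10.1 and 7.56 CPM on the ND, and did not pass (2.62 ± 0.64, SE; edgeR adjusted p = 0.116, DESeq2 adjusted p = 0.000129). Cyp2c67 had 16.6, 9.29 and 7.50 CPM on the HFD, against 1.01, 4.63 and 3.58 CPM on the ND. Cyp2c68 had 14.2, 8.83 and 5.22 CPM on the HFD, against 0.404, 3.00 and 1.39 CPM on the ND. Both were separated between the diets, and both share much of their sequence with Cyp2c40. Cyp2c44, an arachidonic acid epoxygenase, had 22.7, 10.0 and 7.12 CPM on the HFD, against 1.51, 7.37 and 5.87 CPM on the ND, with overlap. Cyp2c70, which makes the muricholic acids of mouse bile, had 16.1, 15.3 and 6.65 CPM on the HFD, against 1.82, 10.6 and 12.1 CPM on the ND. It also overlapped, at a log2 fold change of 0.63 ± 0.68 (SE), and so did Cyp2c54, which lay between 1.90 and 11.1 CPM on the HFD and between 0.555 and 3.78 CPM on the ND.

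In the Cyp3a subfamily, the main drug and steroid oxidising enzymes of the liver, 1 of 4 members rose. Cyp3a11 (ENSMUSG00000056035, chromosome 5, 145854426 to 145879964), a known target of the xenobiotic receptor PXR, had 54.8, 33.6 and 50.8 CPM on the HFD, against 2.12, 7.16 and 5.12 CPM on the ND. It rose 9.67-fold (3.27 ± 0.44, SE; edgeR adjusted p = 0.0441). The 3 HFD libraries of Cyp3a11 lay nearer to each other than those of most hepatocyte markers: its level in HFD library 1 was 1.30 times the mean of HFD libraries 2 and 3, where the median of the hepatocyte markers was 1.73. The part of hepatocyte RNA in the Cyp3a11 values was not tested. Cyp3a25 had 45.0, 21.2 and 30.7 CPM on the HFD, against 0.807, 5.26 and 12.9 CPM on the ND. Cyp3a13 had 10.3, 7.08 and 8.38 CPM on the HFD, against 0.353, 2.26 and 2.34 CPM on the ND. Both were separated without passing (edgeR adjusted p = 0.208 and 0.114). Cyp3a59 held 112 counts on the HFD and 6 on the ND, a ratio of 17.6 with a counting interval of 7.85 to 49.1 (edgeR adjusted p = 0.0676).

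The 5 Cyp2d members, relatives of the human drug metabolising enzyme CYP2D6, summed to 314, 140.0 and 144 CPM on the HFD, against 21.4, 66.6 and 106 CPM on the ND, and had no call in edgeR (5 positive log2 fold changes, median 1.96; relative to hepatocyte marker counts the median was 0.41 and Cyp2d9 and Cyp2d22 turned negative). Cyp2d9, a testosterone hydroxylase known for higher levels in male mouse liver, had 102, 38.6 and 36.0 CPM on the HFD, against 4.19, 21.7 and 34.6 CPM on the ND. Cyp2d26 had 92.7, 44.2 and 51.6 CPM on the HFD, against 2.27, 16.6 and 19.9 CPM on the ND. Cyp2d10 had 69.3, 32.8 and 32.3 CPM on the HFD, against 1.67, 14.7 and 18.2 CPM on the ND. In these 3 genes HFD library 1 was far above the other HFD libraries and ND library 1 far below the other ND libraries, with standard errors of the log2 fold change between 0.72 and 0.78. Cyp2d40 had 13.7, 3.23 and 3.79 CPM on the HFD, against 0.404, 1.32 and 2.44 CPM on the ND, separated without a call in edgeR (2.31 ± 0.81, SE; edgeR adjusted p = 0.208, DESeq2 adjusted p = 0.0218). Cyp2d22 had 36.4, 21.2 and 20.1 CPM on the HFD, against 12.9, 12.3 and 30.9 CPM on the ND, so that its diets overlapped (0.47 ± 0.43, SE; edgeR adjusted p = 0.606).

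Cyp2j5, an epoxygenase abundant in liver and kidney, had 49.0, 22.3 and 29.0 CPM on the HFD, against 1.36, 10.8 and 10.4 CPM on the ND (2.15 ± 0.71, SE; edgeR adjusted p = 0.187). Its relative Cyp2j6 had 9.49, 4.76 and 5.64 CPM on the HFD, against 2.83, 3.63 and 6.52 CPM on the ND, with overlap. Cyp2f2, known for activating naphthalene and, in liver, for its level around the portal vein, had 36.6, 34.4 and 29.7 CPM on the HFD, against 2.57, 23.3 and 22.6 CPM on the ND (1.06 ± 0.69, SE; edgeR adjusted p = 0.469). Its 3 HFD libraries lay close together, while ND library 1 was far below the other two. Cyp1a2, the caffeine metabolising enzyme and a known target of the aryl hydrocarbon receptor, had 20.3, 6.57 and 8.0 CPM on the HFD, against 1.26, 5.26 and 5.72 CPM on the ND. The diets were separated without a call (1.51 ± 0.66, SE; edgeR adjusted p = 0.292).

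None of the 8 bile acid, sterol and steroid hormone enzymes (Cyp7a1, Cyp7b1, Cyp8b1, Cyp11a1, Cyp17a1, Cyp27a1, Cyp39a1 and Cyp46a1) passed in edgeR. Over all genes edgeR called 0.446% higher and 0.188% lower. DESeq2 called 4 of the 8 higher, where it called 4.96% of all genes higher. Cyp7a1, which sets the rate of bile acid synthesis, had 11.1, 6.23 and 1.94 CPM on the HFD, against 0.252, 0.579 and 0.696 CPM on the ND. Its libraries were separated but spread widely on the HFD (3.64 ± 0.74, SE; edgeR adjusted p = 0.0842, DESeq2 adjusted p = 7.44e-06). Cyp8b1, the sterol hydroxylase that makes cholic acid, had 34.1, 13.8 and 15.0 CPM on the HFD, against 1.92, 5.32 and 9.60 CPM on the ND (1.90 ± 0.63, SE; edgeR adjusted p = 0.187). Cyp39a1, an oxysterol hydroxylase, had 3.86, 2.94 and 4.04 CPM on the HFD, against 0.505, 0.737 and 1.14 CPM on the ND, just outside the threshold (2.18 ± 0.35, SE; edgeR adjusted p = 0.0557, DESeq2 adjusted p = 1.22e-05). Its HFD libraries lay close together. Cyp17a1, a hydroxylase of steroid hormone synthesis, had 2.76, 1.64 and 2.02 CPM on the HFD, against 0.151, 0.526 and 0.547 CPM on the ND (2.38 ± 0.48, SE; edgeR adjusted p = 0.080). The 4 that DESeq2 called higher were Cyp7a1, Cyp8b1, Cyp39a1 and Cyp17a1.

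Cyp27a1, the mitochondrial sterol hydroxylase that macrophages are known to use to make an oxysterol, had 171, 126 and 133 CPM on the HFD, against 115, 139 and 127 CPM on the ND. The diets overlapped, and its log2 fold change was 0.18 ± 0.14 (SE; edgeR adjusted p = 0.529). Cyp7b1, the oxysterol hydroxylase known for higher levels in male mouse liver, had 9.29, 3.85 and 3.83 CPM on the HFD, against 0.858, 5.37 and 6.67 CPM on the ND. ND library 1 was its lowest library and HFD library 1 its highest, and the sign of its fold change (0.40 ± 0.73, SE) turned negative without either of them. Cyp11a1, which cuts the side chain of cholesterol, had 1.48, 0.566 and 1.47 CPM on the HFD, against 2.17, 0.474 and 3.83 CPM on the ND, and Cyp46a1, a cholesterol hydroxylase known from brain, lay between 0.510 and 1.43 CPM on the HFD and between 0.199 and 0.947 CPM on the ND.

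The retinoic acid degrading enzymes Cyp26a1 and Cyp26b1 had negative log2 fold changes, and neither passed in edgeR. Cyp26a1 (ENSMUSG00000024987, chromosome 19, 37697808 to 37701528) had 0.858, 0.566 and 0.337 CPM on the HFD, against 2.67, 1.74 and 5.17 CPM on the ND. The diets did not overlap, and the level was 5.44-fold lower on the HFD, at a log2 fold change of -2.44 ± 0.54 (SE), which did not pass in edgeR (adjusted p = 0.0908) and passed in DESeq2 (adjusted p = 0.00105). This gene carries the DR5 printed above. Stellate cell markers, of cells known to store vitamin A, also had negative log2 fold changes. Of 7 markers 4 were separated lower, where 10.8% of all genes were, and all 7 were detected in every library. They summed to 79.7 to 92.4 CPM on the HFD, against 269, 111 and 112 CPM in ND libraries 1 to 3. Within the ND these markers were highest in library 1, and Cyp26a1 was highest in library 3. The part of the stellate cell markers in the Cyp26a1 values was not tested. Cyp26b1 (chromosome 6, 84571414 to 84593908) had 40.3, 51.3 and 56.4 CPM on the HFD, against 12.1, 156 and 304 CPM on the ND. ND library 1 lay below all HFD libraries and the other 2 ND libraries far above them, so the diets overlapped (-1.67 ± 0.95, SE; edgeR adjusted p = 0.402). ND library 3 also held the most sinusoidal endothelial marker RNA, at a sum of 4115 CPM over 8 markers. The sum was 2126 CPM in ND library 1, 1573 CPM in ND library 2 and 1240 to 1707 CPM in the HFD libraries. ND library 1 thus held more endothelial marker RNA than ND library 2 and all HFD libraries, whereas its Cyp26b1 level was the lowest. All 8 of those markers were detected in every library, and their part in the Cyp26b1 values was not tested. Cyp2r1, a vitamin D hydroxylase, had 5.58, 4.93 and 4.13 CPM on the HFD, against 3.38, 4.79 and 3.33 CPM on the ND, with overlap.

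Several members kept nearly the same level in all libraries under scaling to whole libraries, among them the fatty acid hydroxylases Cyp4f13 and Cyp4f16 and the orphan enzyme Cyp20a1. Cyp4f16 had 46.4, 44.2 and 49.9 CPM on the HFD, against 43.4, 44.3 and 47.0 CPM on the ND (0.06 ± 0.08, SE). Cyp4f13 had 41.7, 36.9 and 37.3 CPM on the HFD, against 35.3, 38.5 and 36.9 CPM on the ND (0.07 ± 0.08, SE). Cyp20a1 had 20.6, 23.2 and 25.1 CPM on the HFD, against 24.4, 22.1 and 23.0 CPM on the ND (-0.01 ± 0.11, SE). The summed hepatocyte markers of the same libraries lay between 825 and 11474 CPM.

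Cyp4f18, which inactivates leukotriene B4 in mouse myeloid cells, had 72.8, 74.7 and 89.8 CPM on the HFD, against 54.7, 41.6 and 57.1 CPM on the ND. The diets did not overlap and the spread was small, yet it missed the edgeR threshold (0.63 ± 0.14, SE; adjusted p = 0.0958) and passed in DESeq2 (adjusted p = 0.00754). Neutrophil markers were also higher on the HFD: of 7 tested, 3 rose in edgeR (S100a8, S100a9 and Mmp8), where 0.446% of all genes did. All 7 were separated higher, where 14.5% of all genes were. They summed to 280 to 319 CPM on the HFD and 192 to 201 CPM on the ND. Csf3r made up most of this sum. It had 207, 198 and 200 CPM on the HFD, against 171, 183 and 159 CPM on the ND (0.24 ± 0.08, SE). S100a9, the most abundant of the 3, had 31.9, 23.61 and 27.5 CPM on the HFD, against 3.03, 2.26 and 5.17 CPM on the ND (2.98 ± 0.31, SE; edgeR adjusted p = 0.0351). No neutrophil marker was at 0 in any library, and their part in the Cyp4f18 values was not tested. Cyp4v3, the mouse counterpart of the fatty acid hydroxylase CYP4V2 of human retina, had 118, 105 and 105 CPM on the HFD, against 88.5, 97.9 and 76.2 CPM on the ND (0.32 ± 0.11, SE; edgeR adjusted p = 0.189). Cyp4b1, known from lung, had 53.5, 74.6 and 77.6 CPM on the HFD, against 97.8, 65.9 and 221 CPM on the ND, with ND library 3 far above the rest (-0.90 ± 0.45, SE; edgeR adjusted p = 0.343).

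Cyp4f14 and Cyp4f15, the members of that subfamily known from liver, differed between libraries as Cyp2d9, Cyp2d26 and Cyp2d10 did. Cyp4f15 had 22.6, 14.6 and 9.22 CPM on the HFD, against 0.858, 3.53 and 6.62 CPM on the ND (2.07 ± 0.69, SE; edgeR adjusted p = 0.189). Cyp4f14 had 18.8, 9.91 and 7.45 CPM on the HFD, against 1.06, 5.69 and 7.86 CPM on the ND, with overlap. In both, ND library 1 was the lowest library and HFD library 1 the highest. Of the lowest members, Cyp2t4 had 0.286, 0.396 and 0.379 CPM on the HFD, against 1.06, 0.842 and 1.24 CPM on the ND; the diets were separated without a call (-1.56 ± 0.35, SE; edgeR adjusted p = 0.0957). Cyp2s1 had 1.57, 1.53 and 1.05 CPM on the HFD, against 1.82, 1.16 and 2.94 CPM on the ND. The remaining members (Cyp2j9, Cyp2u1 and Cyp4f17) overlapped between the diets, with edgeR adjusted p-values between 0.495 and 0.944.

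The P450 values were set beside the hepatocyte RNA of the same libraries in 3 ways. First, within a diet: the level in ND library 1 over the mean of ND libraries 2 and 3 was 0.239 for the median hepatocyte marker, with a range of 0.118 to 0.666. Of the 51 members with a ratio, 28 lay in that range, 15 above and 8 below it, while 9.71% of all genes lay in it and the median of all genes was 0.978. ND library 1 was the lowest ND library in 35 of the 53 members, as in 30.1% of all genes tested, and HFD library 1 was the highest HFD library in 44 members, as in 35.1% of all genes tested. The level in HFD library 1 over the mean of HFD libraries 2 and 3 had a median of 1.76 over the members, 1.73 over the hepatocyte markers and 0.996 over all genes. Members above the range include Cyp27a1 (0.865 in the ND ratio), Cyp26a1 (0.774), Cyp4f18, Cyp4f13 and Cyp20a1, and Cyp2a5 (0.0444) and Cyp26b1 (0.0527) lay below it.

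**Figure D4:**
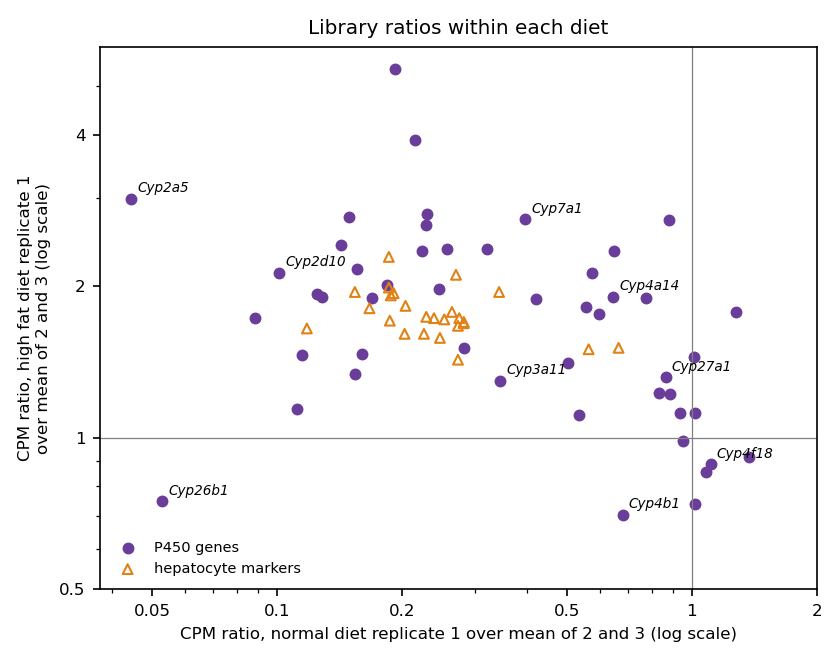
P450 genes (filled circles) and hepatocyte markers (open triangles) by CPM ratios within each diet, both axes on a log scale. The horizontal axis is ND library 1 over the mean of ND libraries 2 and 3. The vertical axis is HFD library 1 over the mean of HFD libraries 2 and 3. Cyp2a22, Cyp2b9, Cyp2a4 and Cyp3a59 have 0 counts in ND library 1 and are not drawn. The hepatocyte markers lie between 0.118 and 0.666 on the horizontal axis. Of the 51 P450 genes with a ratio 28 share that range, and Cyp27a1, Cyp4f18 and others lie near 1 on it.

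Second, libraries were scaled to their hepatocyte marker counts, which asks how a gene differs relative to hepatocyte RNA. The hepatocyte markers then had a median log2 fold change of 0.02, all genes -2.21, and the 52 members -0.31, with 22 members within 1 of 0. On this scale 8 members passed as higher, where 0.223% of all genes did: Cyp2a22, Cyp2a4, Cyp2a5, Cyp2b9, Cyp2c38, Cyp3a59, Cyp4a10 and Cyp4a14. Of the 7 calls 6 also passed here, and Cyp3a11 did not (1.5 ± 0.85, SE, edgeR adjusted p = 0.0871). Because most genes passed as lower on this scale, an adjusted p of 0.05 was a weaker bar than under TMM scaling. Cyp2a5 passed here with an unadjusted edgeR p of 0.00597 (adjusted p = 0.0268). Under TMM scaling its smaller unadjusted edgeR p of 0.00375 did not pass (adjusted p = 0.0978). Per 10000 hepatocyte marker counts, Cyp4a14 had 59.6, 47.8 and 58.2 counts on the HFD, against 3.67, 2.06 and 0.612 on the ND. Cyp2b9 had 14.2, 12.5 and 15.1 on the HFD, against 0 in all 3 ND libraries. Cyp3a11 had 47.8, 48.9 and 76.0 on the HFD, against 25.7, 20.02 and 15.8 on the ND. All 3 genes were separated on this scale too. By contrast Cyp8b1 had 29.7, 20.1 and 22.5 per 10000 on the HFD, against 23.3, 14.9 and 29.5 on the ND, and Cyp1a2 17.7, 9.57 and 11.99 on the HFD, against 15.3, 14.7 and 17.6 on the ND, so both overlapped. Cyp2j5 had 42.7, 32.4 and 43.5 on the HFD, against 16.5, 30.3 and 32.0 on the ND, and Cyp2d26 had 80.8, 64.4 and 77.4 on the HFD, against 27.5, 46.4 and 61.1 on the ND. On the same scale 13 members passed as lower, where 85.3% of all genes did: Cyp11a1, Cyp20a1, Cyp26a1, Cyp26b1, Cyp27a1, Cyp2r1, Cyp2s1, Cyp2t4, Cyp4b1, Cyp4f13, Cyp4f16, Cyp4f17 and Cyp4v3.

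**Figure D5:**
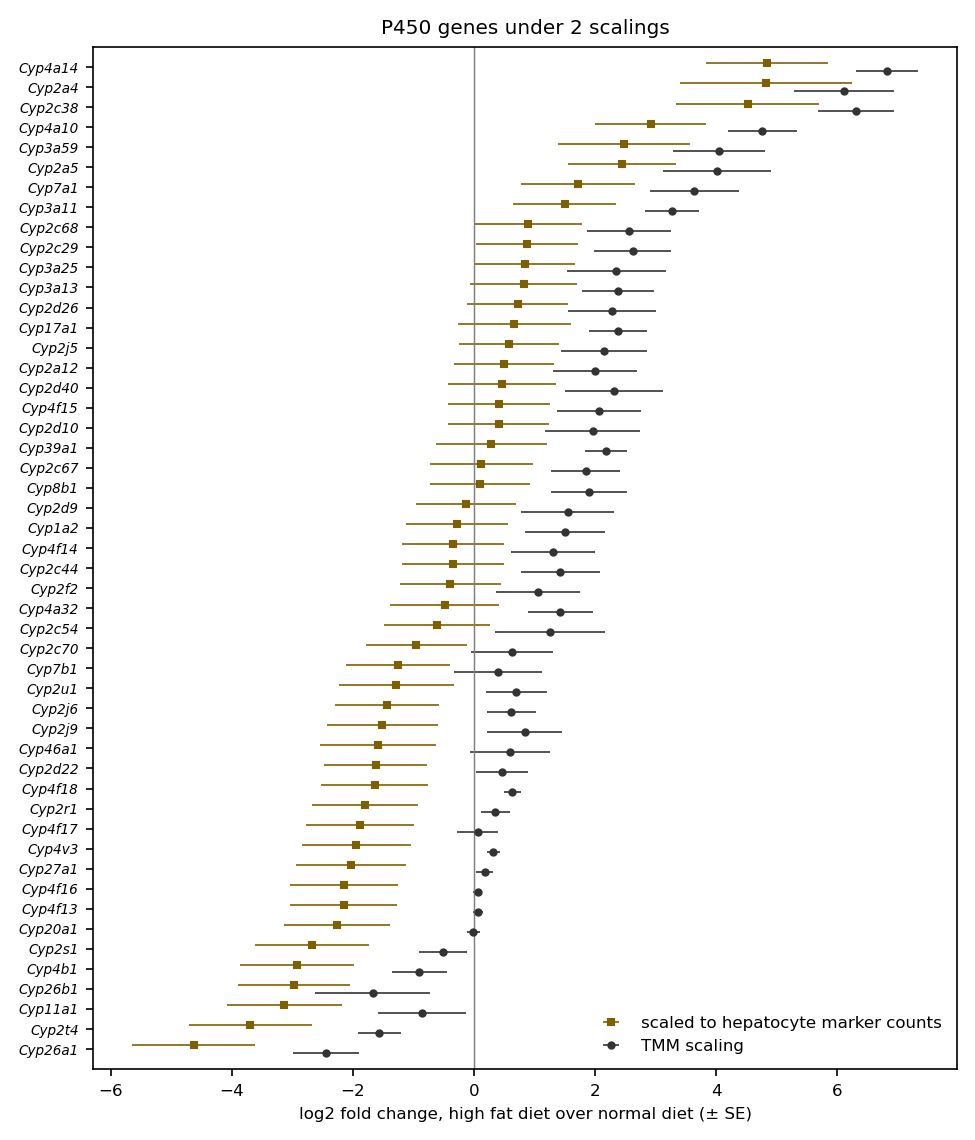
log2 fold change (HFD over ND) with its SE for 50 P450 genes tested, the 2 with no ND counts left out, under scaling to hepatocyte marker counts (squares) and under TMM scaling (circles). Scaling to hepatocyte markers moves all points left (median of all genes -2.21): Cyp4a14 stays at 4.84, Cyp8b1 lies at 0.10 and Cyp27a1 at -2.03.

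Last, the hepatocyte score was entered as a covariate, which leaves 3 residual degrees of freedom, and the scores of the diets do not overlap. The members' median log2 fold change was then 0.02, against -0.03 over all genes, with 27 positive and 25 negative. edgeR called 0 members, and no gene of the 14361 passed in either direction (0.0%); by an unadjusted p below 0.05, 9 members stood higher and 6 lower, where 3.46% of all genes were higher and 3.31% lower. The log2 fold change of Cyp4a14 was 5.49 ± 0.68, of Cyp4a10 2.88 ± 0.41, of Cyp2c38 4.39 ± 0.85 and of Cyp3a11 2.12 ± 0.37 (SE). Cyp2a12, Cyp2j5, Cyp2d26, Cyp8b1 and Cyp3a25 lay between -0.06 and 0.05, and Cyp4f18 was at 0.81 ± 0.23 (SE). Cyp26b1 was at -3.98 ± 0.91 and Cyp7b1 at -1.94 ± 0.32 (SE), without a call. The part of hepatocyte RNA in the diet difference of any single gene was not tested.

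The genes that supply the P450 enzymes with electrons and haem were looked at next. Of 10 electron donors and membrane partners tested, edgeR called 0, and 6 were higher by an unadjusted p below 0.05, where 10.2% of all genes were. DESeq2 called 1 higher, where it called 4.96% of all genes higher, and limma voom called 0. Por, the reductase that serves the microsomal enzymes, had 158, 153 and 153 CPM on the HFD, against 132, 95.8 and 117 CPM on the ND (0.43 ± 0.12, SE; edgeR adjusted p = 0.136). Cyb5a, a cytochrome b5, had 110, 78.1 and 82.8 CPM on the HFD, against 63.6, 66.0 and 71.2 CPM on the ND (0.43 ± 0.14, SE). In all, 5 of the 10 were separated higher (Por, Cyb5a, Cyb5b, Cyb5r1 and Pgrmc1), where 14.5% of all genes were. Pgrmc1, a haem-binding membrane partner of P450 enzymes and the gene DESeq2 called, had 151, 93.4 and 99.3 CPM on the HFD, against 49.2, 64.6 and 61.8 CPM on the ND (0.97 ± 0.21, SE; edgeR adjusted p = 0.0915, DESeq2 adjusted p = 0.0012). The remaining 5 overlapped. Cyb5r3, the reductase of cytochrome b5, had 172, 168 and 165 CPM on the HFD, against 187, 161 and 189 CPM on the ND. The mitochondrial ferredoxin Fdx1 had 12.8, 9.91 and 6.91 CPM on the HFD, against 5.75, 7.16 and 6.77 CPM on the ND. Its reductase Fdxr had 14.4, 13.0 and 12.7 CPM on the HFD, against 12.6, 12.9 and 14.7 CPM on the ND, with no more difference between the diets than within them. Of 8 haem synthesis genes, 1 rose: Alas1, the rate-limiting enzyme of the pathway, had 155, 128 and 109 CPM on the HFD, against 42.1, 35.7 and 50.5 CPM on the ND (1.61 ± 0.17, SE; edgeR adjusted p = 0.0351). The list's median was 0.29, and edgeR called 0.446% of all genes higher. Relative to hepatocyte marker counts Alas1 was at -0.66, against the median of -2.21 over all genes.

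Of 22 nuclear receptors and other factors known to control P450 genes, edgeR called 0. By an unadjusted p below 0.05, 5 were higher and 2 lower, where 10.2% of all genes were higher and 8.4% lower. DESeq2 called 4 as higher and 1 as lower, where it called 4.96% of all genes higher and 3.12% lower. limma voom called 0, and the median over the 22 was -0.02 on the log2 scale. Ppara, the receptor behind Cyp4a expression in liver, had 11.3, 3.96 and 5.14 CPM on the HFD, against 0.656, 2.95 and 2.24 CPM on the ND (1.80 ± 0.62, SE; edgeR adjusted p = 0.196). Nr1i3 (CAR) had 15.5, 7.19 and 5.52 CPM on the HFD, against 0.0505, 1.42 and 1.39 CPM on the ND (3.29 ± 0.84, SE; edgeR adjusted p = 0.125). Both genes were separated between the diets and spread widely within them. Nr1i2 (PXR) had 10.3, 5.15 and 4.93 CPM on the HFD, against 0.605, 2.26 and 4.63 CPM on the ND. The bile acid receptor Nr1h4 had 14.9, 8.04 and 9.14 CPM on the HFD, against 2.98, 4.42 and 5.17 CPM on the ND. Hnf4a, a master regulator of hepatocyte genes, had 55.8, 34.0 and 27.9 CPM on the HFD, against 4.54, 20.1 and 20.5 CPM on the ND. Their log2 fold changes were 1.44 ± 0.68, 1.35 ± 0.31 and 1.38 ± 0.57 (SE). Ahr, the receptor behind Cyp1a2, had 41.3, 40.7 and 50.3 CPM on the HFD, against 93.8, 34.4 and 92.7 CPM on the ND, with overlap. Ppara, Nr1i3, Nr1i2, Nr1h4 and Hnf4a were highest in HFD library 1 and lowest in ND library 1, as the hepatocyte markers were.

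Of 22 known PPAR alpha targets outside the family, 4 rose in edgeR and none fell, where 0.446% of all genes were higher and 0.188% lower. The median log2 fold change of the 22 was 0.68, and 17 were separated higher, where 14.5% of all genes were. Vnn1, a pantetheinase, had 11.4, 6.85 and 7.58 CPM on the HFD, against 0.151, 0.211 and 0.249 CPM on the ND (5.36 ± 0.35, SE; edgeR adjusted p = 0.0231). Angptl4, an inhibitor of lipoprotein lipase, had 32.8, 27.4 and 30.9 CPM on the HFD, against 8.58, 12.8 and 11.5 CPM on the ND. Hadha, of mitochondrial beta-oxidation, had 170, 173 and 179 CPM on the HFD, against 122, 129 and 125 CPM on the ND. Both rose without overlap, by 1.47 ± 0.17 and 0.47 ± 0.07 on the log2 scale (SE; adjusted p = 0.0351 and 0.0436 in edgeR; -0.60 and -1.74 relative to hepatocyte marker counts), and the lipid droplet gene Cidec was the fourth. Relative to hepatocyte marker counts the list's median was -1.52, and Vnn1 was at 3.49. Of genes that mark zones of the liver lobule outside the family, 0 of 7 pericentral and 1 of 14 periportal ones rose in edgeR (Apoa4, with 27.3, 23.2 and 33.5 CPM on the HFD, against 0.605, 3.05 and 2.64 CPM on the ND, 3.74 ± 0.51, SE; adjusted p = 0.0481), with 1 and 8 higher by an unadjusted p below 0.05, and 1 and 5 called higher by DESeq2. limma voom called 0 and 1. The shares of all genes higher were 0.446% in edgeR, 10.2% by an unadjusted p below 0.05, 4.96% in DESeq2 and 0.355% in limma voom. The median log2 fold changes of the pericentral and periportal genes were 0.28 and 1.13.

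Several members have near-identical copies, and the sources used here do not state how reads that match more than 1 gene were counted. In annotated transcripts of GRCm38, the share of 50-base windows also found in another gene was 0.245% for Cyp4a14, 7.45% for Cyp2c38, 11.2% for Cyp2b9 (with Cyp2b13), 14.8% for Cyp3a11, 25.7% for Cyp2a22 (with Cyp2a12), 29.8% for Cyp4a10 (mostly Cyp4a32) and 38.8% for Cyp2a4 (mostly Cyp2a5). It was above 20% in 16 members, the highest being Cyp2c67 at 52.8%, and 0 in 15, among them Cyp7a1, Cyp8b1, Cyp26a1, Cyp26b1 and Cyp27a1. The levels of Cyp2a4, Cyp2a22, Cyp4a10 and other members with a high share are therefore uncertain. Exons of 6 members (Cyp2a4, Cyp2f2, Cyp2s1, Cyp2t4, Cyp2u1 and Cyp4f18) overlap exons on the opposite strand, and no strand-keeping step is named in the library protocol, so reads of the pairs cannot be told apart. In the authors' deposited table, which gives their own comparison of the diets, 20 members were higher and 1 lower at an adjusted p under 0.05, among 1191 genes called. For Cyp4a14 the authors' deposited table gives a log2 fold change of 5.12 (adjusted p = 8.77e-52) and for Cyp26a1 -1.62 (adjusted p = 0.000656).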

How the data were processed

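RNA from liver macrophages of 6 mice, 3 per diet, was sequenced after enrichment with oligo(dT) beads. The authors deposited 1 table with raw read counts per gene, the same counts divided by 1 size factor per library (a normalised signal), FPKM per gene length, and their own log2 fold changes and p-values for the diets. Per the submitters' processing notes, the tools named are the aligners HISAT2 and STAR, then featureCounts and StringTie, edgeR and DESeq, and STAR-Fusion, with build mm10; versions, roles, strandedness and the handling of reads with several matches are not stated there. The lowest mean normalised count in the table was 7.02. Cyp2e1 and Cyp1b1 have symbols that fit the naming rule, but they are not among the 53 members found in the deposited table. They are not analysed here, and nothing is said of their levels. The family sums and abundance ranks therefore leave them out.

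The raw counts were tested with edgeR 4.0.16 in R 4.3.3 (TMM scaling, its filter on low expression, robust quasi-likelihood F test, diet as the only term) over 14361 of 14918 genes, with Benjamini-Hochberg adjustment over all of them and a threshold of 0.05. CPM values use the TMM library sizes, and the FPKM were used only to compare levels between genes. The common biological coefficient of variation was 20.9%. Libraries of 1 group differed beyond sampling noise (chi-square statistics of 13.7 to 72.6 per degree of freedom), so each counted as 1 replicate. Counting intervals and floors of 3 counts cover counting error only.

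Alternatives were DESeq2 1.42.0, limma voom 3.58.1, total-count, median-ratio and upper-quartile scaling, scaling to the counts of 25 hepatocyte markers, a hepatocyte score (mean log2 CPM, prior count 2) as a covariate, no filter or a filter of 5 CPM in 3 libraries, and each library left out in turn. The joint removal of both libraries numbered 1, edgeR without its robust prior, and the addition of P450 symbols outside the pattern were chosen after seeing the data. Members and lists, the Y-linked list among them, were chosen with earlier results of these data known. Named with a value in every library were members past the threshold, the most abundant member of a subfamily at a mean of 1 CPM or more, members at a mean of 5 CPM or more, a short list of bile acid and other enzymes, electron donors, Alas1 and receptors, and up to 3 called genes of each list. Other members named are named to account for the family. Of the other cell type lists, 0 of 4 cholangiocyte, 0 of 4 B cell and 0 of 1 T cell markers in the table passed in edgeR.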

Additional observations from a re-analysis of the deposited data

How the results depend on the processing

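The 7 higher and 0 lower calls in edgeR were also made under total-count, median-ratio and upper-quartile scaling, with no filter, without the robust prior and with the P450 symbols outside the pattern added. The higher calls numbered 4 with the filter of 5 CPM, which tests fewer members, 4 in limma voom, 20 in DESeq2, 0 when the hepatocyte score was a covariate and 0 without both libraries numbered 1 (25 members higher by an unadjusted p below 0.05, where 6.05% of all genes were); in both of these settings 0 genes of the whole table passed in either direction. With 1 library left out they numbered 0 to 12 and the lower calls 0 to 2, the 2 being Cyp26a1 and Cyp2t4 without ND library 2. By an unadjusted p below 0.05, 16 to 26 members stood higher with 1 library left out, where 6.4% to 13.1% of all genes did; without ND library 2, the setting with 13.1%, it was 18 members. The lower calls numbered 13 under scaling to hepatocyte marker counts and 1 in DESeq2. The members' median log2 fold change was 0.87 to 1.99 with 1 library left out, 0.68 without both libraries numbered 1, 0.02 with the covariate and -0.31 relative to hepatocyte marker counts.

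Relative to hepatocyte marker counts, a scaling that by construction moved all genes down, log2 fold changes that were positive under TMM became negative for Cyp1a2 (-0.28), Cyp27a1 (-2.03), Cyp2d9 (-0.13), Cyp2f2 (-0.39), Cyp2r1 (-1.8), Cyp4f18 (-1.64), Cyp4v3 (-1.94), Cyp7b1 (-1.25), Cyp2c70 (-0.95), Cyp2c44 (-0.34), Cyp2d22 (-1.62), Cyp2j6 (-1.43), Cyp4f16 (-2.14), Cyp4f13 (-2.15), Cyp4f14 (-0.34), Por (-1.92), Cyb5a (-1.81), Fdx1 (-1.61), Alas1 (-0.66), Nr1i2 (-0.23), Nr1h4 (-0.73), Hnf4a (-0.32), Angptl4 (-0.6) and Hadha (-1.74). With the covariate the sign changed for Cyp1a2 (-0.58), Cyp20a1 (0.15), Cyp27a1 (-0.12), Cyp2a12 (-0.06), Cyp2d9 (-0.87), Cyp2f2 (-0.9), Cyp2j5 (-0.04), Cyp7b1 (-1.94), Cyp2c70 (-1.29), Cyp2c44 (-0.64), Cyp2d10 (-0.51), Cyp2d22 (-0.39), Cyp2j6 (-0.34), Cyp4f13 (-0.06), Cyp4f14 (-0.89), Ppara (-0.13), Nr1i2 (-0.61) and Hnf4a (-0.39). Total-count scaling changed it for Cyp20a1 (0.01) and Fdxr (0.02). Without both libraries numbered 1 it changed for Cyp20a1 (0.08), Cyp27a1 (-0.05), Cyp7b1 (-0.66), Cyp2c70 (-0.07), Cyp2d22 (-0.08) and Cyp4f13 (-0.04). With 1 library left out, values ranged from -0.08 to 0.04 for Cyp20a1, -0.17 to 0.87 for Cyp7b1, -0.01 to 0.1 for Cyp4f13 and -0.07 to 0.07 for Fdxr. The cause of these changes was not tested.

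No paired analysis was possible because the labels give mouse identifiers and no replicate numbers that the diets share. The scores of the diets do not overlap, so in the covariate fit diet and hepatocyte RNA are largely confounded.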

Other observations

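A few P450 genes have symbols that the naming rule leaves out. Tbxas1, the thromboxane synthase known from macrophages and platelets, had 188, 185 and 184 CPM in the HFD libraries, against 219, 223 and 195 CPM in the ND libraries. The diets did not overlap, and the difference did not pass (-0.19 ± 0.08 on the log2 scale, SE; adjusted p = 0.25 in edgeR). Ptgis, the prostacyclin synthase known from endothelial and mesenchymal cells, had 37.7, 26.2 and 24.5 CPM on the HFD, against 78.9, 69.5 and 57.1 CPM on the ND. It lay just outside the threshold (-1.22 ± 0.20, SE; edgeR adjusted p = 0.0597), with no overlap. Cyp51, of cholesterol synthesis, had 24.9, 21.4 and 18.9 CPM on the HFD, against 24.5, 17.4 and 28.5 CPM on the ND, with overlap.

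Cyp2ab1 had 2.76, 4.19 and 3.92 CPM on the HFD, against 1.51, 2.0 and 2.39 CPM on the ND. Its libraries were separated without a call (0.88 ± 0.28, SE; edgeR adjusted p = 0.176). Cyp4a12a, the Cyp4a member known for higher levels in male mice, had 4.24, 2.49 and 1.31 CPM on the HFD, against 0.605, 2.74 and 4.28 CPM on the ND. Unlike Cyp4a10 and Cyp4a14 it overlapped between the diets, at a log2 fold change of 0.07 ± 0.71 (SE); the difference between these genes was not tested. Cyp4a12b lay under the filter on low counts.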
